A study of Rattus norvegicus with 3 samples.

Results

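The RNA of 9 genes of the tight junction was examined in a cell-depleted supernatant of spinal cord from rats without and rats with a contusion. The genes were chosen by symbol, and all 9 were found among the 12758 gene symbols of the deposited table. They are the claudins CLDN1, CLDN5, CLDN10, CLDN11 and CLDN12, the tetraspan proteins OCLN (occludin) and MARVELD2 (tricellulin), the scaffold TJP1 (ZO-1) and the adhesion molecule F11R (JAM-A). The No-SCI group comprised female Sprague Dawley rats, 3 months old, with a laminectomy at T9 and no contusion, and the SCI group had the same laminectomy followed by a contusion of the exposed cord. The tissue was taken at T8, just rostral to the injury, 24 h later, digested with a protease that works in the cold, and spun to remove cells. By the labels, the No-SCI group had 2 libraries and the SCI group 1, while the study's methods speak of 2 animals in each condition. The table holds 1 group value per gene and condition in FPKM (sequenced fragments per transcript length and library size), and no value of a single library, so no SD, n or test between groups stands behind any difference given here. The methods give a nominal read number for the libraries, but the table holds no counts, so the depth behind a value is unknown. Log2 ratios set SCI over No-SCI with no pseudocount, and a gene is called past 2-fold when the larger value is at least 2 times the smaller one.

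Tight junctions seal the space between neighbouring cells. Claudins form the strands, occludin and tricellulin travel with them, tricellulin at the points where several cells meet, and ZO proteins bind the tails of most claudins and of occludin on the inside and tie them to actin. In the cord such strands close the endothelium of the blood-spinal cord barrier and the arachnoid barrier layer, and they also run between the lamellae of central myelin, where claudin-11 builds them. ZO-1 is in addition found at gap junctions and adherens junctions, so its RNA is not restricted to cells with a barrier.

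TJP1 was the only one of the 9 genes past 2-fold, and it was lower after SCI. The share of all genes past 2-fold was 12.1% in the lower and 7.93% in the higher direction, so 1 of 9 lower and 0 of 9 higher does not set these genes apart from the table. After the median of all genes was centred at 0, the shares became 9.59% lower and 9.53% higher, and TJP1 was still the only member called. By sign, 5 of the 9 genes were lower and 4 higher. The median log2 ratio of the 9 was −0.23, beside −0.12 for all genes, and their ratios ran from −1.30 to 0.67.

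TJP1 encodes the scaffold ZO-1 and was by far the most abundant member. It stood at 247 FPKM in No-SCI, at percentile 93.5 of all genes, and at 100.1 FPKM in SCI. The SCI value was thus 2.47-fold lower, a log2 ratio of −1.30, and the ratio ran from −1.31 to −1.18 over the alternatives tried. As the other members differed less between the groups, the RNA of the scaffold stood less far above those of its partners after SCI. TJP1 was 15.2 times CLDN5 in No-SCI and 7.30 times CLDN5 in SCI, and its ratio to OCLN went from 34.5 to 13.5.

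**Figure D1:**
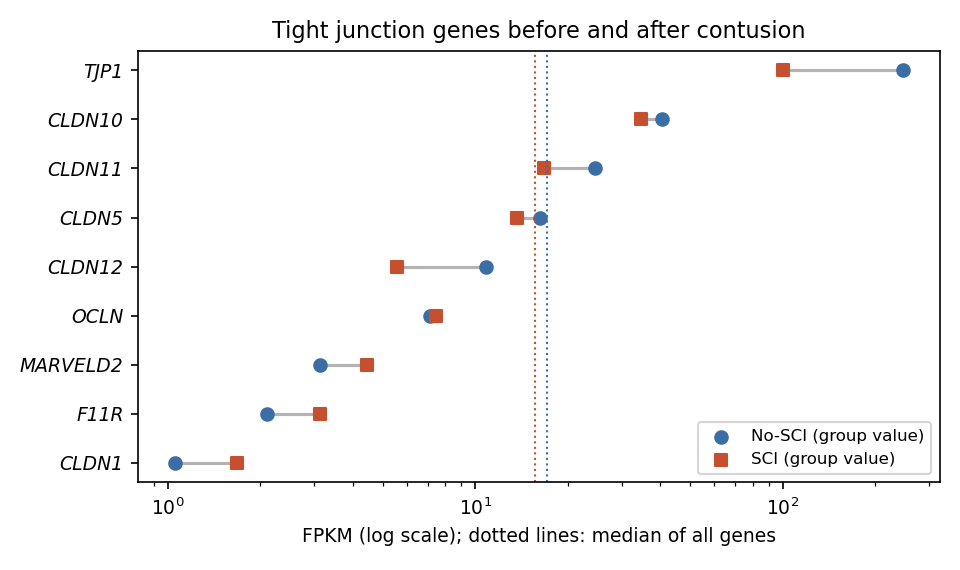
FPKM of each of the 9 genes on a log axis, with a circle for the No-SCI and a square for the SCI group value and no error bars, as the table has 1 value per group. Dotted lines mark the median of all genes (17.2 FPKM in No-SCI, 15.6 FPKM in SCI), and TJP1 shows the longest shift, from 247 to 100.1 FPKM.

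Among the claudins, CLDN10, a family member whose isoforms form ion-selective pores and whose RNA is found in astrocytes, was the most abundant of the 5. It had 40.4 FPKM in No-SCI and 34.5 FPKM in SCI, a log2 ratio of −0.23. CLDN5, the main claudin of barrier endothelium, had 16.2 and 13.7 FPKM, with a ratio of −0.24. The pair had nearly the same proportion in both groups, with CLDN10 at 2.497 times the level of CLDN5 in No-SCI and 2.52 times in SCI. Part of both differences was the shift of the whole table, and after median centring the ratios were −0.11 for CLDN10 and −0.12 for CLDN5.

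CLDN11, the claudin of myelin, which also occurs in the arachnoid barrier, had 24.5 FPKM in No-SCI and 16.7 FPKM in SCI. The SCI value was 1.46-fold lower (log2 ratio −0.55), and the gene went from percentile 58.3 to 51.8 of all genes. CLDN12, an atypical claudin without the tail motif that binds ZO proteins, had 10.8 and 5.57 FPKM. Its log2 ratio of −0.96 lay just short of 2-fold, and it came to −1.11 when 1 was subtracted from both values. It was the claudin member with the largest decrease, and in SCI it stood below OCLN in the order of levels.

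CLDN1, the claudin of the epidermal barrier and of the perineurial sheath of nerves, was the least abundant member in both groups. It had 1.05 FPKM in No-SCI, close to the lowest value of the table, which is 1, and 1.68 FPKM in SCI. As deposited its log2 ratio was 0.67. With 1 subtracted from both values the levels were 0.052 and 0.676 FPKM and the log2 ratio was 3.70. The subtraction cannot change the direction, but the size of the difference depended on how the low values were made. On that scale CLDN1 was 1 member past 2-fold higher, beside 10.4% of all genes, and TJP1 and CLDN12 were the 2 past it lower, beside 16.2%. Even after injury CLDN1 stood at percentile 3.53 of all genes.

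OCLN and MARVELD2 share the MARVEL membrane domain. OCLN had 7.15 FPKM in No-SCI and 7.43 FPKM in SCI, a log2 ratio of 0.05 and the smallest difference among the members. MARVELD2 had 3.13 and 4.45 FPKM, a log2 ratio of 0.51. In the GRCr8 rat annotation both genes lie on chromosome 2, and the 3 annotated entries between them are a lncRNA and pseudogenes, none of which is listed in the table. OCLN was 2.28 times as abundant as its neighbour in No-SCI and 1.67 times in SCI.

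F11R encodes JAM-A, an immunoglobulin-like adhesion molecule of endothelium, epithelium, platelets and leukocytes. It had 2.10 FPKM in No-SCI and 3.12 FPKM in SCI, a log2 ratio of 0.57, which was 0.95 with 1 subtracted from both values. The 4 members that were higher after SCI (OCLN, MARVELD2, F11R and CLDN1) were the lowest 4 of the 9 in No-SCI. The 5 that were lower were the highest 5. The No-SCI value is also the denominator of the ratio, so this order is no independent evidence of a link with level. Of all genes, 2630 of 6379 with a mean level under the median were higher after SCI, and 2938 of 6379 at or above it. No order between neighbours could be tested, and the order of the 9 was the same in both groups except that OCLN and CLDN12 changed places.

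**Figure D2:**
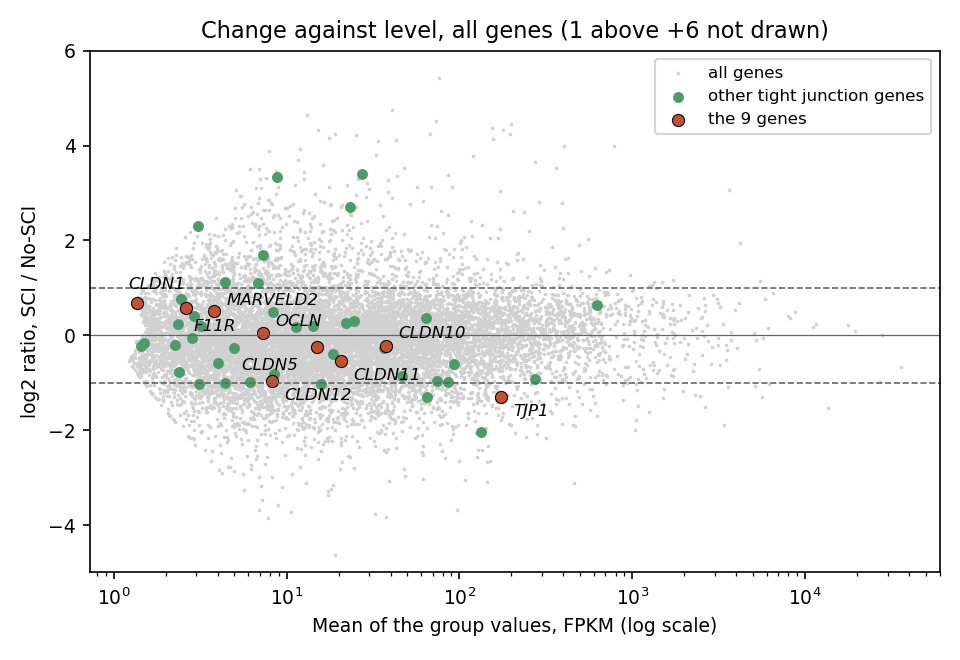
Log2 ratio of SCI to No-SCI against the mean of the group values in FPKM (log axis) for all genes (grey), the 9 genes (red, named) and the other tight junction genes listed (green), with dashed lines at 2-fold. TJP1 at −1.30 is the only named gene outside the dashed lines, and CLDN12 at −0.96 lies next to the lower one.

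None of the rest of the claudin family listed was past 2-fold as deposited, beside 7.93% of all genes higher and 12.1% lower. With 1 subtracted from both values, 1 of these genes was past 2-fold higher and 1 lower, beside 10.4% and 16.2% of all genes. Of 18 further genes, namely 17 claudins and the claudin-domain gene CLDND1, 8 were listed, 3 of them higher and 5 lower after SCI. CLDND1 was the most abundant of them, with 359 FPKM in No-SCI and 190.5 FPKM in SCI (log2 ratio −0.91). CLDN14, chosen after its values were seen, had 21.9 FPKM in No-SCI and 27.1 FPKM in SCI. Its share of the summed FPKM of the 12 listed claudins was 16.8% before and 23.9% after injury, and that of CLDN11 was 18.8% and 14.8%. CLDN10 held the largest share in both groups, 31.1% and 30.4%. CLDN2, CLDN3, CLDN6, CLDN8, CLDN16, CLDN17, CLDN18, CLDN20, CLDN22 and CLDN34 were not among the listed genes.

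The other membrane proteins of the junction, on a list drawn up with earlier results of these data known, were more often past 2-fold than the members. Of 13 genes 9 were listed, 4 of them past 2-fold higher and 1 lower, beside 7.93% and 12.1% of all genes. Of all genes with a mean level under the median, 9.52% were past 2-fold higher and 13.3% lower. CLMP, an adhesion molecule of the CAR family, had 1.57 FPKM in No-SCI and 15.9 FPKM in SCI, a 10.1-fold difference. CXADR, the coxsackievirus and adenovirus receptor that gives this family its name, had 1.03 and 5.13 FPKM (log2 ratio 2.31). The No-SCI values of both lie near 1, where an added constant would make the ratio too small. LSR (angulin-1), which recruits tricellulin to tricellular contacts, had 3.45 and 11.2 FPKM (log2 ratio 1.70), beside the 0.51 of MARVELD2. IGSF5 (JAM4) had a ratio of 1.13. The 1 lower gene was CRB3, a polarity protein, with 4.16 and 2.04 FPKM, both below the level set for naming genes. ILDR2 (angulin-3), the most abundant gene of this list, had 20.1 and 24.1 FPKM. JAM3, the JAM family member of myelinating and endothelial cells, was chosen after its values were seen. Its ratio of −0.99, from 8.21 to 4.15 FPKM, was opposite in sign to that of F11R.

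Scaffold and polarity proteins went both ways. Of 25 genes 22 were listed, 3 of them (13.6%) past 2-fold higher and 4 (18.2%) lower, beside 7.93% and 12.1% of all genes. MAGI1, a scaffold with several PDZ domains, had 214 FPKM in No-SCI and 52.3 FPKM in SCI, the largest decrease of the list (log2 ratio −2.03, beside the −1.30 of TJP1). TJP1 was 1.15 times MAGI1 in No-SCI and 1.91 times in SCI. AMOT (angiomotin) had a ratio of −1.29, and MPDZ (MUPP1) and SYMPK (symplekin) had −1.03 and −1.02. The last of these, like CRB3 and MPDZ, was no longer past 2-fold after the median of all genes was centred at 0. The 3 genes past 2-fold higher were PARD6G, PARD3B and CGNL1. PARD6G, a PAR6 polarity protein, had 4.74 FPKM in No-SCI and 49.8 FPKM in SCI (10.5-fold), and CGNL1 (paracingulin) had 6.22 and 40.3 FPKM (6.48-fold). PARD3B had a ratio of 1.11. RAB13, a small GTPase of junction assembly and the most abundant gene of the list, had 485 and 758 FPKM (log2 ratio 0.64).

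Over the 3 lists together, 39 of 56 genes were listed, with 7 (17.9%) past 2-fold higher and 5 (12.8%) lower. After median centring the counts were 7 higher and 2 lower, beside 9.53% and 9.59% of all genes. Their median log2 ratio was −0.16. These lists were drawn up with earlier results of these data known, and the shares are given as a description beside the 7.93% and 12.1% of all genes.

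**Figure D3:**
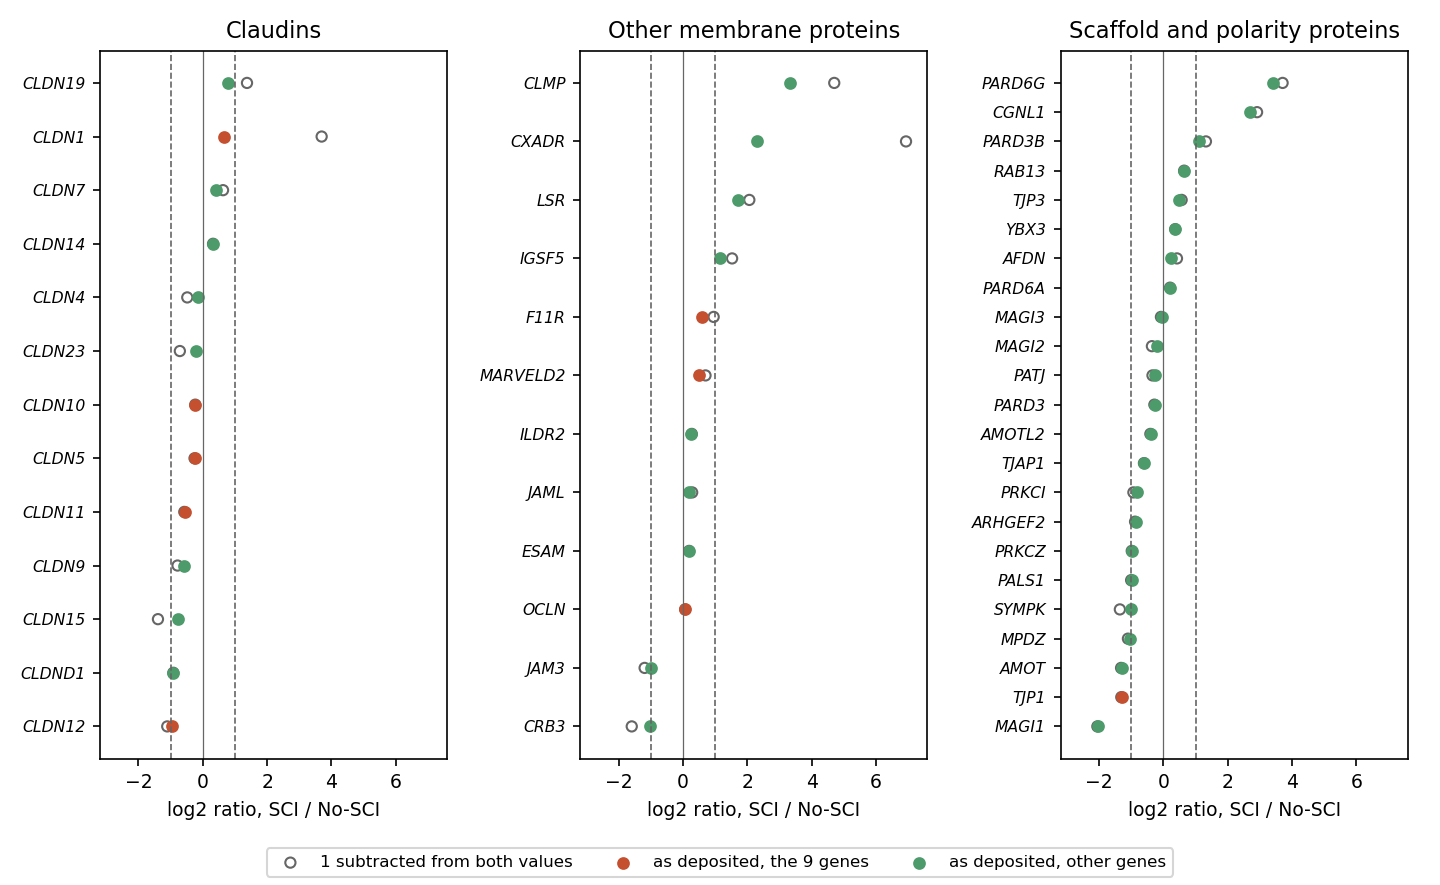
Log2 ratio of SCI to No-SCI of every listed tight junction gene, in panels for claudins, other membrane proteins, and scaffold and polarity proteins, as deposited (filled) and with 1 subtracted from both values (open), with dashed lines at 2-fold. MAGI1 (−2.03) lies lowest in the scaffold panel, followed by TJP1 (−1.30) and AMOT (−1.29), and the open and filled points of CLDN1 and CXADR lie far apart.

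Markers of cell types in which the members are known are given here, whether or not those cells build tight junctions. Each count past 2-fold stands beside 7.93% of all genes higher and 12.1% lower. In this cell-depleted supernatant, fewer cells of a type in the piece taken, less RNA per cell and less RNA left after the spin cannot be told apart. The same holds for more cells, more RNA per cell and more RNA left where a list was higher. Of 19 oligodendrocyte and myelin genes 17 were listed, 11 of them past 2-fold lower and none higher, and their summed level was 83749 FPKM in No-SCI and 47367 FPKM in SCI. Their median log2 ratio was −1.35, beside −0.55 for CLDN11. MOBP, BCAS1 and CNP were the most abundant of the list, and MBP and ENPP2 were not listed. Of 15 astrocyte genes 10 were listed, with 6 past 2-fold lower, none higher and a median of −1.16, beside −0.23 for CLDN10. The sum of these genes was 24700 FPKM in No-SCI and 20873 FPKM in SCI, most of it from APOE, NDRG2 and GLUL. APOE had 10448 and 11804 FPKM, NDRG2 8001 and 3228 FPKM, and GLUL 5858 and 5624 FPKM, so they did not share a direction. GFAP, AQP4, SLC1A3, ALDOC and S100B were not listed. The part of these cell types in the values of CLDN11 and CLDN10 was not tested.

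Of 20 endothelial genes 15 were listed, with 5 past 2-fold higher and none lower, beside 7.93% and 12.1% of all genes. Their median log2 ratio was 0.39. By sign, 9 were higher and 6 lower. Their sum was 310 FPKM in No-SCI and 334 FPKM in SCI, of which CAV1 gave 219 and 162 FPKM. ERG (20.8 and 45.5 FPKM) and LEF1 (17.2 and 31.1 FPKM) were next, and PECAM1, ABCG2, TEK, TIE1 and SLC38A5 were not listed. CDH5, the cadherin of endothelial junctions, was chosen after its values were seen, and had 3.85 and 11.7 FPKM (log2 ratio 1.61). MFSD2A, a lipid transporter of barrier endothelium that was likewise chosen afterwards, had a ratio of −0.23, beside −0.24 for CLDN5. The transporters SLC2A1 and ABCB1A of the same list, also chosen afterwards, had ratios of 0.39 and −0.51, so these transporters did not share a direction. The part of endothelial cells in these values was not tested.

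Leptomeningeal and arachnoid genes showed the widest difference of the marker lists. All 19 listed of 22 were higher after SCI, 17 of them past 2-fold, beside 7.93% of all genes. Their median log2 ratio was 2.56, and their sum was 146 FPKM in No-SCI and 1355 FPKM in SCI. FXYD5 (47.2 and 171 FPKM), CRABP2 (17.3 and 382 FPKM) and PTGDS (16.2 and 224 FPKM) were the most abundant in No-SCI, and SLC22A6, SLC47A1 and DPP4 were not listed. Several of these genes were known from earlier results of these data to be higher, so the count is no independent evidence. CLDN11, which the arachnoid barrier shares with myelin, was lower while this list was higher. The list mixes leptomeningeal and arachnoid genes, so it does not measure the barrier layer alone. Its genes within 2-fold, CDH1 and KRT18, named after their values were seen, had log2 ratios of 0.80 and 0.83. Their No-SCI values were low, 1.11 and 1.40 FPKM. Of 6 Schwann cell genes 5 were listed, and 2 were past 2-fold higher (PRX and NCMAP, chosen after their values were seen), beside 7.93% of all genes. PRX had 1.96 FPKM in No-SCI and 7.55 FPKM in SCI. NCMAP had 1 and 4.21 FPKM, so its ratio starts from the lowest value deposited. PMP2, DRP2 and EGR2 were the most abundant of that list, with log2 ratios of −0.001, −0.85 and 0.37. The sum of the list was 99.97 FPKM in No-SCI and 96.8 FPKM in SCI, and CDH19 was not listed. Of 6 platelet genes 4 were listed, with a sum of 12.5 FPKM in No-SCI and 9.03 FPKM in SCI. Past 2-fold were 1 higher and 1 lower, beside 7.93% and 12.1% of all genes. PF4, PPBP and GP9 were the most abundant platelet genes, ITGA2B and TREML1 were not listed, and F11R, which platelets also carry, was higher. The part of meningeal, Schwann cell or platelet RNA in the values of CLDN1, F11R, MARVELD2 and the other junction genes was not tested.

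**Figure D4:**
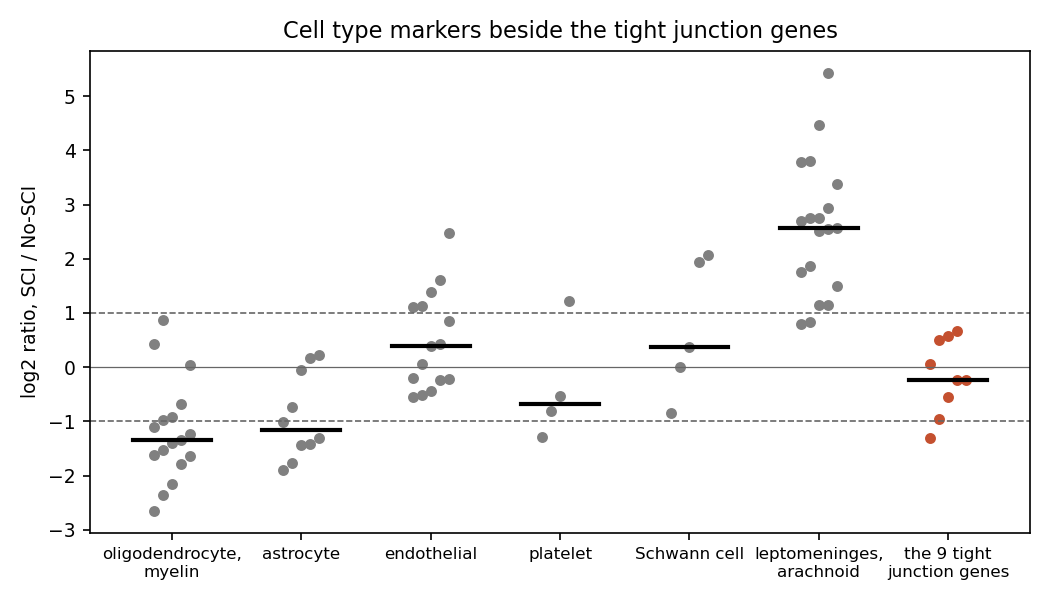
Log2 ratio of SCI to No-SCI of each listed marker gene by cell type (grey) and of the 9 tight junction genes (red), with black bars at the medians and dashed lines at 2-fold. The medians are −1.35 for oligodendrocyte and myelin genes, 2.56 for leptomeningeal and arachnoid genes and −0.23 for the 9 genes.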

How the data were processed

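Ribosomal RNA was depleted and stranded total RNA libraries were made. The authors reduced every library to the read number of the smallest, aligned to rn6 with STAR 2.5.4b and the Ensembl annotation, and estimated group FPKM values with upper quartile normalization; the labels' processing notes name Cuffdiff 1.3.0. The strand setting of the counting is not given in the sources used here. The deposited FPKM values are 1 per group. The columns of the authors' own comparison (p, q, significance, fold change and log2 fold change) were not used, and all measurement columns had a group (0 without). The table has 12771 entries; 13 symbols occur 2 times, and the more abundant entry was kept. No value lies below 1. All 9 members matched a symbol of the GRCr8 RefSeq table, which was used for names and gene order. It gives TJP1, OCLN and MARVELD2 overlapping non-coding or pseudogene entries.

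Computed were log2 ratios, ranks, percentiles, and counts past a fold of 2, a threshold chosen for this work. The members and lists were chosen with earlier results of these data known. Named were the members, other tight junction genes past 2-fold with a value of at least 5 FPKM, the most abundant gene of each such list, the 3 most abundant and the unlisted genes of each marker list, the 3 genes with the values nearest to those of CLDN11 and CLDN5, and genes marked as chosen afterwards. Alternatives were pseudocounts of 1 and 0.1, subtraction of 1, 3 scalings, folds of 1.5 and 3, a mean of at least 5 FPKM, and summed duplicate entries. Some genes of the lists are not reported here. The counting step was tested on simulated data. Python 3.11.15, numpy 2.4.6, pandas 2.3.3 and matplotlib 3.10.9 were used.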

Additional observations from a re-analysis of the deposited data

How the results depend on the processing

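No alternative changed the sign of any of the 9 log2 ratios, but none could have done so, and the constant sign is no evidence of robustness. A constant added to or taken from both values keeps their order, and the filter and the summing left the member ratios as they were. The scalings added between 0.045 and 0.117 to every log2 ratio, while the smallest decrease among the members was −0.23 (CLDN10). The call at 2-fold was the same for all but CLDN12 and CLDN1. CLDN12 (−1.11) and CLDN1 (3.70) passed 2-fold when 1 was subtracted from both values, which gave 2 members lower and 1 higher, beside 16.2% and 10.4% of all genes. With a fold of 1.5 the members were again 2 lower and 1 higher, beside 26.3% and 16.9% of all genes, and with a fold of 3 none (0) was lower, TJP1 included, beside 3.27%. The other tight junction genes past 2-fold lower, 5 as deposited, numbered 2 with a pseudocount of 1 and under each of the scalings (median, total, upper quartile), and 3 with a pseudocount of 0.1, since CRB3, MPDZ and SYMPK lay close to the threshold. They were also 3 with a mean of at least 5 FPKM, a filter that removes CRB3 and SYMPK. They were 8 with 1 subtracted from both values, 13 with a fold of 1.5 and 1 with a fold of 3. The share of all genes lower was 9.53% with a pseudocount of 1 and 11.7% with 0.1. It was 9.59%, 11.1% and 9.87% under the scalings and 12.1% with the filter. With 1 subtracted it was 16.2%, and with folds of 1.5 and 3 it was 26.3% and 3.27%. The counts of other tight junction genes that were higher stayed between 5 and 9, beside shares of all genes from 3.17% to 16.9%. Both list medians moved by less than 0.2. CLDN1, F11R and MARVELD2 have a mean under 5 FPKM and give no value under that filter. Leaving out a library was not run, as the table has no values per library. No paired analysis was possible because the table holds group values alone and the labels give the groups no shared number.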

Other observations

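The genes with the pair of group values nearest to those of CLDN11, by Euclidean distance in log2 FPKM over the 2 conditions, were TOX4 (24.3 and 16.6 FPKM in No-SCI and SCI), POLD3 and TTC4, the farthest at 0.0279. For CLDN5 they were RWDD2A (16.1 and 13.7 FPKM), LOC102553848 and GAB2, the farthest at 0.0234. With 2 values per gene, many genes lie this close.

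The decimals of the deposited values bear on the low members. Of the No-SCI values above 1 and under 2 FPKM, 86.9% were written with at least 6 decimals, and of those from 2 to 3 FPKM 37.6%. From 10 to 11 FPKM 79.8% had at least 5 decimals, from 11 to 12 FPKM 64.9%, and from 12 to 100 FPKM 45.3%. The SCI values gave 88.5%, 42.6%, 81.8%, 66.4% and 44.5% for the same ranges. A number of 6 significant digits to which 1 has been added loses a decimal at 2 and at 11, whereas without an added constant it loses them at 1 and at 10. Whether a constant was added is not given in the sources used here. Exactly 1 are 18 No-SCI and 37 SCI values. CLDN1, TJP1, CLDN10, CLDN12, OCLN and MARVELD2 carry 7 significant digits in at least 1 group, as 58.6% of all genes do, and CLDN5, CLDN11 and F11R carry 6. The origin of the seventh digit was not tested.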
